A study of Mus musculus with 9 samples.

Results

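The 8 genes described here encode subunits of the transcription factor AP-1: Fos, Fosb, Fosl1 and Fosl2 of the FOS family, Jun, Junb and Jund of the JUN family, and Atf3. They were taken by gene symbol from a table of 29756 entries, and each symbol occurred once. AP-1 is a dimer of basic leucine zipper proteins that binds short DNA motifs in promoters and enhancers. JUN proteins can pair with themselves or with FOS proteins, whereas FOS proteins need a JUN partner, so the set of subunits a cell makes decides which dimers can form. Fos, Fosb, Jun and Junb are classical immediate early genes, Fosl1 (FRA-1) and Fosl2 (FRA-2) are usually induced later and for longer, and Jund is present in most resting cells. Atf3 is a stress-inducible partner of JUN proteins and is known as a target of the integrated stress response.

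RNA came from HT22 cells, a line of immortalised mouse hippocampal neurons, as 9 libraries, 3 each in an intervention group, an experimental group and a control group. Hemin (the oxidised iron porphyrin) and PPP8 (a micelle) appear in the title of the series, but no label ties an agent, dose or duration to a group, so the groups keep their label names. Nothing in the labels says that replicates came from separate cultures, so p-values measure just the spread between such samples, which may be technical. Levels are FPKM, which correct for library size and gene length and so can be set side by side between genes. FPKM summed to between 316912 and 339943 per library, and read depth is unknown. Of 11 neuronal markers, 2 or 3 reached 1 FPKM in a library, and the neuronal nuclear antigen gene Rbfox3 stayed at or below 0.16 FPKM. Summed neuronal markers were 9.32 to 10.7 FPKM in intervention, 11.8 to 12.1 in experimental and 12.04 to 16.7 in control libraries. Of 13 markers of astrocytes, microglia and blood, oligodendrocytes and endothelium, 0 reached 1 FPKM in any library, and their sums were 0.74 to 2.46 FPKM in intervention, 1.45 to 2.66 in experimental and 1.73 to 3.75 in control libraries. Their part in the AP-1 differences was not tested.

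The make-up of AP-1 mRNA differed between the groups in 1 subunit above all. Fosl1 was the most abundant of the 8 mRNAs in all 6 intervention and experimental libraries and the fifth in all 3 control libraries. It held 39.0 ± 4.31% of the summed AP-1 FPKM in intervention, 46.2 ± 2.71% in experimental and 7.82 ± 0.537% in control libraries (SD, n = 3 each). Jund had the opposite order, with 12.6 ± 2.49% in intervention, 8.78 ± 2.50% in experimental and 30.7 ± 4.55% in control libraries. Jun held nearly the same share throughout, 29.9 ± 0.573% in intervention, 29.7 ± 0.861% in experimental and 30.4 ± 0.893% in control libraries, although its own level differed between the groups.

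**Figure D1:**
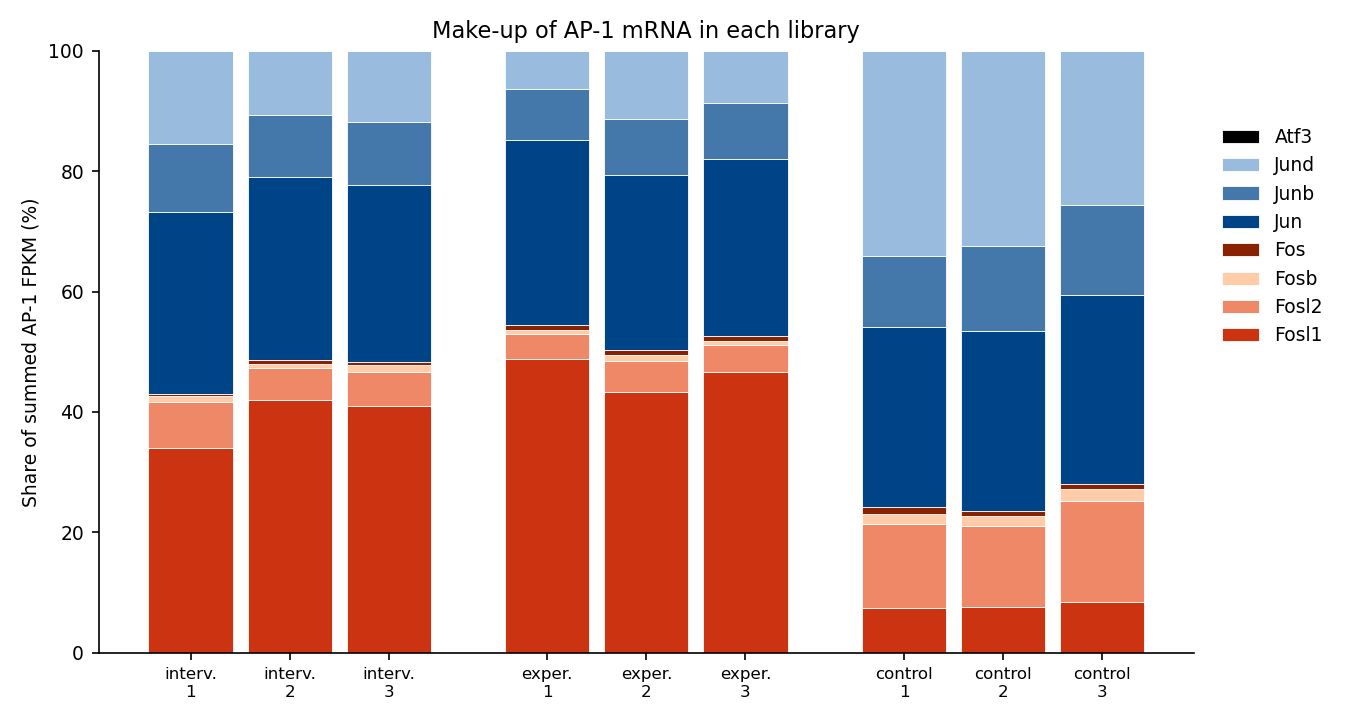
Share of each subunit in the summed FPKM of the 8 AP-1 genes (vertical axis, percent) in each of the 9 libraries (horizontal axis: intervention, experimental, control). The red Fosl1 segment at the foot of each bar covers 34.1% to 48.7% in the intervention and experimental libraries and 7.40% to 8.43% in the control libraries, and the dark blue Jun segment keeps nearly the same height.

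The sum of the 8 mRNAs was 137 ± 20.9 FPKM in intervention, 198 ± 19.3 in experimental and 82.7 ± 7.07 in control libraries (SD, n = 3 each). The FOS family held 46.7 ± 3.13% of that sum in intervention, 52.4 ± 2.13% in experimental and 25.3 ± 2.40% in control libraries. Within the FOS family, Fosl1 held 83.4 ± 3.80% in intervention, 88.1 ± 1.63% in experimental and 31.0 ± 1.29% in control libraries. Fosl2 held 13.5 ± 3.65% of the family in intervention, 8.91 ± 1.30% in experimental and 58.1 ± 1.34% in control libraries, where it was the leading FOS mRNA. Fos and Fosb together never held more than 12.2% of the FOS family in any library.

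Ratios between subunits need no scaling between libraries. The FPKM ratio of Fosl1 to Fosl2 was 4.48, 7.81 and 7.27 in intervention, 11.6, 8.37 and 10.2 in experimental and 0.532, 0.567 and 0.505 in control libraries. The 3 groups did not overlap in this ratio. The ratio of Jun to Jund was 1.95, 2.84 and 2.49 in intervention, 4.86, 2.57 and 3.37 in experimental and 0.874, 0.924 and 1.23 in control libraries. Here the intervention and experimental libraries overlapped, and both lay above the control libraries. The ratio of Fosl1 to Jun was 1.30 ± 0.151 in intervention, 1.55 ± 0.0539 in experimental and 0.257 ± 0.0101 in control libraries (SD, n = 3 each). These shares and ratios are descriptions, with no test.

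Fosl1 (ENSMUSG00000024912.6, chromosome 19, 5447547 to 5455946, plus strand of mm10, 4 exons) encodes FRA-1, which lacks the transactivation domain found in FOS and FOSB. It had 38.4, 60.7 and 62.3 FPKM in intervention, 102, 76.3 and 97.3 in experimental and 6.65, 6.30 and 6.38 in control libraries. The 3 groups were fully apart, with experimental libraries highest and control libraries lowest. Exons of Ccdc85b, on the opposite strand, cover 57.2% of the exonic bases of Fosl1, and the authors' use of strand is not given in the sources used here. Ccdc85b itself had 8.14 ± 0.892 FPKM in intervention, 7.56 ± 0.0529 in experimental and 8.22 ± 0.654 in control libraries, and was not called in experimental against control (limma adjusted p = 0.24) or intervention against experimental libraries (limma adjusted p = 0.415).

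Jun (ENSMUSG00000052684.4, chromosome 4, 95049034 to 95052222, minus strand, 1 exon) encodes c-JUN, the strongest activator of the JUN family and a substrate of the JNK kinases. It had 34.0, 44.0 and 44.5 FPKM in intervention, 64.4, 51.1 and 61.5 in experimental and 26.7, 24.7 and 23.8 in control libraries. As with Fosl1, the groups did not overlap and ran in the same order. Junb (ENSMUSG00000052837.6, chromosome 8, 84974484 to 84978718, minus strand, 1 exon), a weaker activator that can restrain c-JUN, had 12.7, 14.9 and 16.1 FPKM in intervention, 17.7, 16.4 and 19.4 in experimental and 10.7, 11.6 and 11.4 in control libraries. Its groups also stood apart, by smaller steps. The antisense gene Junos covers 7.28% of the exonic bases of Jun, at 1.31 ± 0.167 FPKM in intervention, 1.02 ± 0.132 in experimental and 1.58 ± 0.0473 in control libraries. Prdx2 covers 7.52% of those of Junb from the other strand, at 55.5 ± 4.13 FPKM in intervention, 50.1 ± 2.63 in experimental and 61.5 ± 3.84 in control libraries. Both partners were lower in experimental than in control libraries (-0.35 and -0.29, limma adjusted p = 0.0036 and 0.00306), where Jun and Junb were higher.

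Jund (ENSMUSG00000071076.6, chromosome 8, 70698949 to 70700616, plus strand, 1 exon) encodes the JUN protein most often linked to slow growth. It had 17.4, 15.5 and 17.9 FPKM in intervention, 13.25, 19.9 and 18.2 in experimental and 30.6, 26.8 and 19.3 in control libraries. The third control library lay below the second experimental library, so those groups overlapped. The antisense gene Gm11175 covers 52.6% of its exonic bases and was not analysed here. Fosl2 (ENSMUSG00000029135.10, chromosome 5, 32135801 to 32157842, plus strand, 4 exons), which encodes FRA-2, had 8.57, 7.78 and 8.58 FPKM in intervention, 8.84, 9.11 and 9.55 in experimental and 12.5, 11.1 and 12.6 in control libraries. All 3 control values lay above the others.

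The classical immediate early FOS genes were barely present. Fos (ENSMUSG00000021250.13, chromosome 12, 85473890 to 85477273, plus strand, 4 exons) had 0.45, 0.89 and 0.73 FPKM in intervention, 1.73, 1.31 and 1.49 in experimental and 1.16, 0.62 and 0.60 in control libraries. Its experimental values lay above all others. Fosb (ENSMUSG00000003545.3, chromosome 7, 19302696 to 19310051, minus strand, 4 exons) had 1.10, 0.95 and 1.81 FPKM in intervention, 1.54, 1.73 and 1.50 in experimental and 1.50, 1.35 and 1.57 in control libraries. The 3 groups of Fosb overlapped. Atf3 (ENSMUSG00000026628.13, chromosome 1, 191170296 to 191218039, minus strand, 4 exons) was listed at 0.03, 0 and 0.06 FPKM in intervention, 0.11, 0.18 and 0.09 in experimental and 0, 0 and 0.05 in control libraries. It reached 1 FPKM in 0 of 9 libraries and was therefore not tested, although every experimental value lay above every other value. Without a filter on low values its difference of experimental against control was 0.15 on the log2(FPKM + 1) scale (adjusted p = 0.013, limma). The same fit did not call it in intervention against experimental (-0.13, limma adjusted p = 0.101) or intervention against control libraries (0.02, limma adjusted p = 0.8). Levels this near 0 are listed with 2 decimals only.

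**Figure D2:**
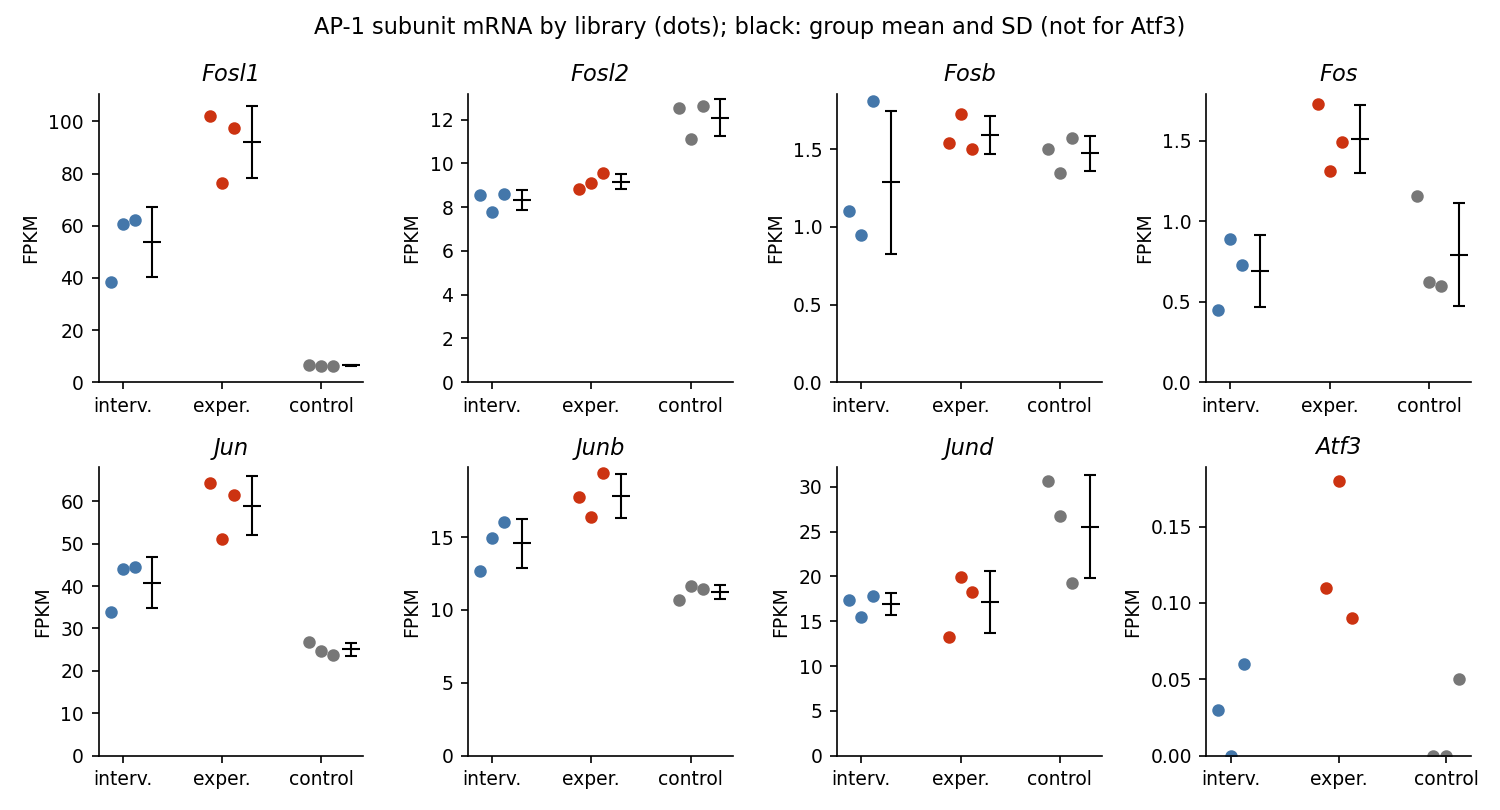
FPKM of each AP-1 subunit (vertical axis, linear, from 0, own scale per panel) in the intervention, experimental and control libraries (dots, 3 per group), with the group mean and SD in black except for Atf3. Fosl1, Jun and Junb are highest in the experimental and lowest in the control libraries, Fosl2 and Jund have their highest means in the control libraries, and Atf3 stays at or below 0.18 FPKM.

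Promoter windows of 250 bases before to 50 bases after the transcription start were taken from RefSeq on GRCm38.p6 (mm10), which matched 7 of the 8 genes, with none for Fosl1. Shown are those of Jun and Junb, which had their highest levels in the experimental libraries together with Fosl1, of Fos, the classical immediate early member, and of Fosl2, which was highest in the control libraries. They lie at chr4:95052173-95052472 (minus strand), chr8:84978699-84978998 (minus strand), chr12:85473640-85473939 (plus strand) and chr5:32136222-32136521 (plus strand). Each runs 5′ to 3′ along its gene, and capitals mark the motifs TGACATCA and TGACGT.
Jun: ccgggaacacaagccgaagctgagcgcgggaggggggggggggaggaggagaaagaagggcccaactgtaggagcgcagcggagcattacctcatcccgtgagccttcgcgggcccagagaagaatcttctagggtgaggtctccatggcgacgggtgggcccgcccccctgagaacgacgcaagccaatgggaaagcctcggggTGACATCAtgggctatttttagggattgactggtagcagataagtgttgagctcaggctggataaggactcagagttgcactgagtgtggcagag
Junb: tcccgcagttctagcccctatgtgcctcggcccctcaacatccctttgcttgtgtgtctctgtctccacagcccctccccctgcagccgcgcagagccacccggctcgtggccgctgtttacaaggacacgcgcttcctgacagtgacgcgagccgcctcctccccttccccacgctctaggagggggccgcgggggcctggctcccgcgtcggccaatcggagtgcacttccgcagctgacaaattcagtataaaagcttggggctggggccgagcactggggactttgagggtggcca
Fos: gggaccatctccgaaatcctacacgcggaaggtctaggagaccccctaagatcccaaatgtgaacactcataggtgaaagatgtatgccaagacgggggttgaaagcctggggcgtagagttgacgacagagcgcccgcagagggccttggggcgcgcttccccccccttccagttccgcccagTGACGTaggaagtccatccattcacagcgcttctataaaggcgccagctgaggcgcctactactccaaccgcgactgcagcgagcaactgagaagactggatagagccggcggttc
Fosl2: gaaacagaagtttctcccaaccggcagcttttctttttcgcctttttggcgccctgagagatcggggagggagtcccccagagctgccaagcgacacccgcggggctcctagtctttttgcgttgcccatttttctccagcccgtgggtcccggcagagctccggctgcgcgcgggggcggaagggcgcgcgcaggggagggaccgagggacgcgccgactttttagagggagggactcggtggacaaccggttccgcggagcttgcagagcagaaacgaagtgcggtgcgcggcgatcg

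The motifs searched on both strands were the AP-1 site TGACTCA, the cAMP response element TGACGTCA, its variant TGACATCA, the shorter TGACGT that lies within TGACGTCA, the antioxidant response element core TGACNNNGC, the heat shock pattern GAANNTTC and the CArG box, which serum response factor binds. The window of Jun held TGACATCA 45 to 38 bases before the start and GAANNTTC 128 to 121 bases before it. Fos held TGACGT 66 to 61 bases before the start, Atf3 held it on the other strand 8 to 3 bases before the start, and Fosl2 held GAANNTTC 244 to 237 bases before it. None of these motifs was in the windows of Junb, Fosb or Jund. The window of Jund, chr8:70697489-70697788 (plus strand), ends before the gene start at 70698949 given above. It therefore does not cover the bases around that start. The window of Fosl2 lies after the gene start at 32135801 given above. The window of Atf3, chr1:191183284-191183583 (minus strand), lies inside the gene, away from its start at 191218039. For Fosl2 and Atf3 the distances therefore count from another start than the one given above. Of 32851 such windows, TGACATCA occurred in 3.62%, TGACGT in 7.51%, GAANNTTC in 7.86%, TGACTCA in 5.20%, TGACGTCA in 1.79%, TGACNNNGC in 12.4% and the CArG box in 1.63%. A match is a description of the letters and not a site of binding.

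The comparison of the experimental with the control group, the widest of the 3, put 4 subunits higher and 2 lower. Of the 8 genes, 7 reached 1 FPKM in at least 3 libraries and were tested on the log2(FPKM + 1) scale. Of these 7, 6 were called at an adjusted p under 0.05, beside 74.0% of the 11974 genes tested, so the number of calls by itself is near the background. By direction, 4 were higher, beside 23.5% of all genes, and 2 were lower, beside 50.5%. Fos passed the filter with its 3 experimental libraries and 1 control library, so its calls in comparisons with the experimental group are tied to how it was let in. Without Fos, 3 of 6 were higher and 2 lower. The median of the 6 differences was 0.34, against -0.21 for all genes. FPKM are relative to the size of each library, so they show neither the number of cells nor the amount of RNA per cell.

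Fosl1 rose 14.3-fold in mean FPKM, to 91.9 ± 13.8 in experimental against 6.44 ± 0.183 in control libraries (SD, n = 3 each). Its log2 difference was 3.63 (SE 0.17, limma adjusted p = 8.58e-08), or 3.84 relative to the median of all genes. Jun rose 2.35-fold, to 59.0 ± 6.97 in experimental against 25.1 ± 1.51 FPKM in control libraries, with a log2 difference of 1.20 (SE 0.11, limma adjusted p = 5.47e-06). Junb rose 1.58-fold, to 17.8 ± 1.51 against 11.2 ± 0.480 FPKM in control libraries, by 0.62 (SE 0.09, limma adjusted p = 9e-05). These 3 rises were called under all 18 alternatives, 9 of which left out 1 library.

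Fos also rose, to 1.51 ± 0.211 in experimental against 0.793 ± 0.318 FPKM in control libraries, by 0.50 (SE 0.14, limma adjusted p = 0.00963). At levels this low the log2(FPKM + 1) scale understates the ratio of means, which was 1.90. Fosl2 fell to 9.17 ± 0.358 in experimental against 12.1 ± 0.848 FPKM in control libraries, a difference of -0.36 (SE 0.06, limma adjusted p = 0.000456). Relative to the median of all genes that is -0.16, and median-ratio scaling ended the call (adjusted p = 0.0816). Jund fell to 17.1 ± 3.46 in experimental against 25.6 ± 5.75 FPKM in control libraries, a difference of -0.55 (SE 0.17, limma adjusted p = 0.0142). The call ended under median-ratio scaling (adjusted p = 0.111), in a fit of unfiltered genes (0.0517), without experimental replicate 1 (0.056) and without control replicate 1 (0.0599). Fosb was not called, at 1.59 ± 0.123 in experimental and 1.47 ± 0.112 FPKM in control libraries (difference 0.07, 95% interval -0.22 to 0.35, limma adjusted p = 0.65). Quantile normalization called it higher (0.33, adjusted p = 0.0449).

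**Figure D3:**
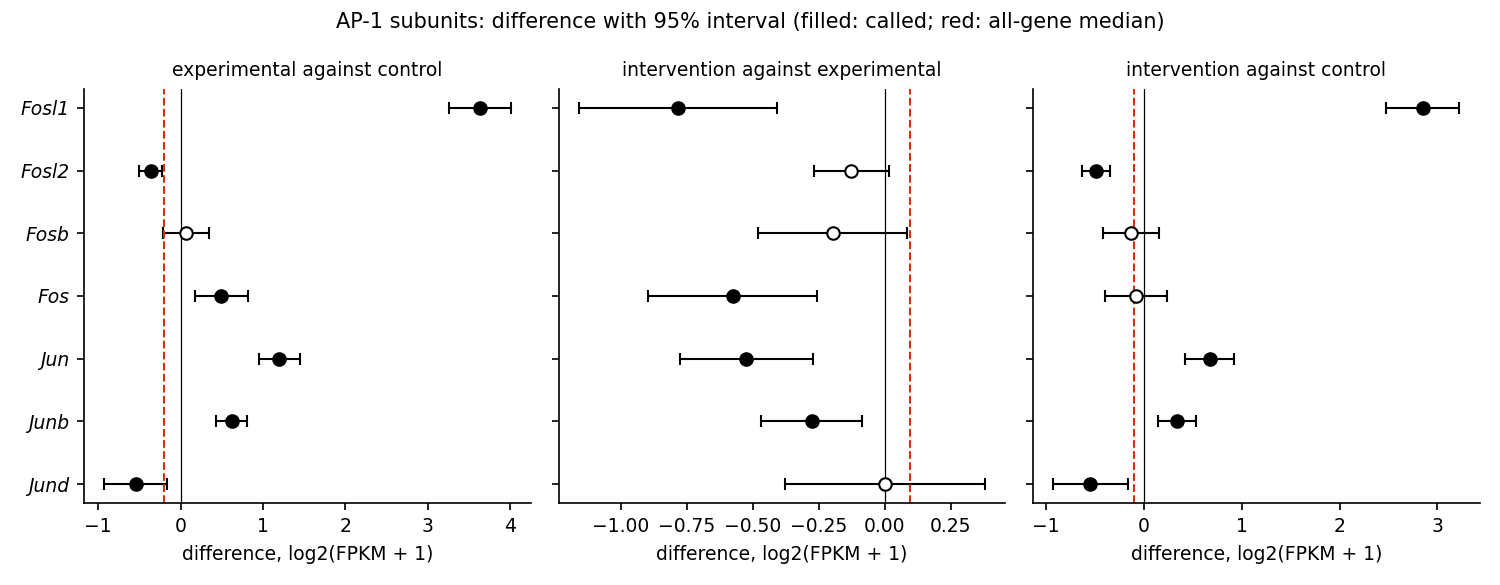
Difference of each tested AP-1 subunit on the log2(FPKM + 1) scale (horizontal axis, own scale per panel) with its 95% interval, for the 3 comparisons. Filled points were called by limma at an adjusted p under 0.05, and the red dashed line is the median of all 11974 genes. Fosl1 stands at 3.63 and 2.85 in the comparisons with control and at -0.78 in intervention against experimental.

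The intervention group was set against the experimental group next. The 4 subunits that were higher in experimental than in control libraries were lower in intervention than in experimental libraries, and 0 were higher. That makes 4 of 7 tested members called, beside 19.5% of all genes, with 3.60% of all genes called lower and 15.9% higher. Fos again passed the filter through the experimental libraries, with 0 intervention libraries at 1 FPKM, and without it 3 of 6 were lower. The 2 comparisons share the experimental libraries and are not independent. Fosl1 fell to 53.8 ± 13.4 in intervention against 91.9 ± 13.8 FPKM in experimental libraries (SD, n = 3 each), a ratio of 0.585 and a log2 difference of -0.78 (SE 0.17, limma adjusted p = 0.0187). Jun fell to 40.8 ± 5.92 in intervention against 59.0 ± 6.97 FPKM in experimental libraries, a difference of -0.52 (SE 0.11, limma adjusted p = 0.0185). The step of Junb was smaller, 14.6 ± 1.71 in intervention against 17.8 ± 1.51 FPKM in experimental libraries (-0.28, SE 0.09, limma adjusted p = 0.0487). Fos fell to 0.69 ± 0.223 in intervention against 1.51 ± 0.211 FPKM in experimental libraries (-0.58, SE 0.14, limma adjusted p = 0.0262).

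All 4 of these calls rest on single libraries. Without experimental replicate 1, experimental replicate 3 or intervention replicate 1, limma called 0 members, with 4 at an unadjusted p under 0.05 each time, and all 4 differences kept their sign. Fosl1 then had differences of -0.70, -0.74 and -0.56 (adjusted p = 0.0724, 0.0721 and 0.057). The same fits called 1, 4 and 6 of all 11974 genes, against 2337 with all libraries. They had 3355, 3375 and 3161 of all genes at an unadjusted p under 0.05. Fos was also lost without intervention replicate 3 (adjusted p = 0.0598). Junb was lost too without intervention replicate 2 (0.0626) and without control replicates 1, 2 and 3 (0.0643, 0.056 and 0.0612). No mean-variance trend, a fit of only the 2 groups compared and quantile normalization ended the Junb call as well. It held in 6 of 18 alternatives.

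The other 3 tested subunits were not called. Fosl2 had 8.31 ± 0.459 in intervention and 9.17 ± 0.358 FPKM in experimental libraries (difference -0.13, 95% interval -0.27 to 0.01, limma adjusted p = 0.17), without overlap, and median-ratio scaling called it lower (adjusted p = 0.0408). Fosb had 1.29 ± 0.459 in intervention and 1.59 ± 0.123 FPKM in experimental libraries (-0.20, interval -0.48 to 0.09, limma adjusted p = 0.277), and was called without intervention replicate 3 (adjusted p = 0.05, just under the threshold). Jund had 16.9 ± 1.25 in intervention and 17.1 ± 3.46 FPKM in experimental libraries, and its interval ran from -0.38 to 0.38. The Jund means of these 2 groups were thus close, but the interval is wide beside its experimental against control difference of -0.55. The intervention means of Fosl1, Jun and Junb lay between those of the other 2 groups. The intervention means of Fos, Fosb, Fosl2 and Jund lay below both.

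The intervention group was last set against the control group, with libraries that both earlier comparisons used. Of the 7 tested members 5 were called, beside 65.3% of all genes. Of these, 3 were higher and 2 lower, beside 24.1% higher and 41.1% lower of all genes. Fosl1 was 8.35-fold higher, at 53.8 ± 13.4 in intervention against 6.44 ± 0.183 FPKM in control libraries (log2 difference 2.85, SE 0.17, limma adjusted p = 5.55e-07). Jun was 1.63-fold and Junb 1.30-fold higher (differences 0.67 and 0.34, limma adjusted p = 0.000433 and 0.00556). Fosl2 was lower, at 8.31 ± 0.459 in intervention against 12.1 ± 0.848 FPKM in control libraries (-0.49, SE 0.06, limma adjusted p = 8.26e-05), and this call held under all 18 alternatives, median-ratio scaling included. Jund was lower as well (-0.55, SE 0.17, limma adjusted p = 0.0167), a call lost without control replicate 1, control replicate 2 or intervention replicate 2 (adjusted p = 0.068, 0.0529 and 0.0552) and with no filter on low values (0.0621). Fos was not called, at 0.69 ± 0.223 in intervention and 0.793 ± 0.318 FPKM in control libraries (95% interval -0.40 to 0.24, limma adjusted p = 0.642). Fosb was not called either (interval -0.41 to 0.15, adjusted p = 0.383), except without intervention replicate 3, when it was lower (-0.29, adjusted p = 0.0226).

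The subunits differed in which library of a group was lowest. Fosl1, Jun, Junb and Fos each had their lowest experimental value in replicate 2 and their lowest intervention value in replicate 1. Among all 11974 tested genes 10.4% had this pattern, and among the 2809 that were higher in experimental than in control libraries 27.2% had it. Jund, Fosb and Atf3 instead had their highest experimental values in replicate 2, at 19.9, 1.73 and 0.18 FPKM. Fosb and Atf3 were lowest in experimental replicate 3 and intervention replicate 2. The highest intervention value of Jun was 44.5 and its lowest experimental value 51.1 FPKM, so the groups still stood apart.

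The genes nearest to each member over the 9 libraries were found by the root-mean-square difference of log2(FPKM + 1) values centred on their mean, among 10347 genes. Fosl1, whose own values spread by 1.57 around their mean, was nearest to Osgin1 (0.12) and Ier3 (0.13). Osgin1 averaged 20.1 FPKM in intervention, 31.2 in experimental and 1.68 in control libraries, and Ier3 152, 249 and 21.1 FPKM in the same order. Jun, with a spread of 0.51, was nearest to Gcnt2 (0.06) and to the MAP kinase phosphatase gene Dusp4 (0.08), which averaged 45.4 FPKM in intervention, 62.4 in experimental and 25.3 in control libraries. Junb was nearest to Znrf3 and Naf1 (0.06 each, own spread 0.27), and Fosl2 to Herc6 and Lrch1 (0.05 each, own spread 0.22). The nearest genes of Jund, Fos and Fosb were farther off for their spread: Dgka and Particl for Jund (0.13 each, own spread 0.33), Slc2a1 and Plat for Fos (0.13 each, own spread 0.30), and Hspa1l for Fosb (0.09, own spread 0.16).

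Genes around AP-1 were described from lists of reported targets, MAP kinases, promoter factors, turnover factors and other partners. All these lists were chosen with earlier results of these data known, so their counts beside the background are descriptions only. Of 22 genes reported as AP-1 targets in mammalian cells, 15 were tested, and 10 were higher and 4 lower in experimental than in control libraries, beside 23.5% higher and 50.5% lower of all genes. The growth factor genes Areg and Hbegf, both among the 10 and named after their values were seen, passed the filter only with the help of the 3 experimental libraries, where they were highest. Without these, 8 of 13 were higher and 4 lower, with a median difference of 0.48 against -0.21 for all genes. Ptgs2, the inducible cyclooxygenase, had 249 ± 47.6 in experimental against 5.71 ± 0.437 FPKM in control libraries (log2 difference 5.20, limma adjusted p = 3.68e-08). Plaur, the urokinase receptor, had 21.0 ± 1.90 against 2.75 ± 0.210 FPKM (2.55, limma adjusted p = 6.54e-08). Vim, which encodes the intermediate filament vimentin, fell to 317 ± 13.4 in experimental against 633 ± 25.0 FPKM in control libraries (-1.0, limma adjusted p = 2.37e-07).

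In intervention against experimental libraries, 2 targets were higher and 7 lower, beside 15.9% higher and 3.60% lower of all genes. Areg and Hbegf were again among the 7, and without them 2 of 13 were higher and 5 lower, with a median of -0.11 against 0.10 for all genes. Ptgs2 fell to 107 ± 31.9 in intervention against 249 ± 47.6 FPKM in experimental libraries (-1.23, limma adjusted p = 0.0151). The epiregulin gene Ereg fell to 1.50 ± 0.112 against 2.51 ± 0.229 FPKM in experimental libraries (-0.49, limma adjusted p = 0.0151), and the cyclin D1 gene Ccnd1 rose to 19.2 ± 0.428 against 14.8 ± 1.52 FPKM (0.36, limma adjusted p = 0.0153). As for the members, 0 targets were called by limma without experimental replicate 1, experimental replicate 3 or intervention replicate 1, with 9 at an unadjusted p under 0.05 each time. The same fits called 0 genes of the other 4 lists in this comparison, where 1 to 6 genes per list had an unadjusted p under 0.05. Such a p was found for 3355, 3375 and 3161 of all 11974 genes in these fits. In intervention against control libraries 8 targets were higher and 4 lower, beside 24.1% higher and 41.1% lower of all genes.

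**Figure D4:**
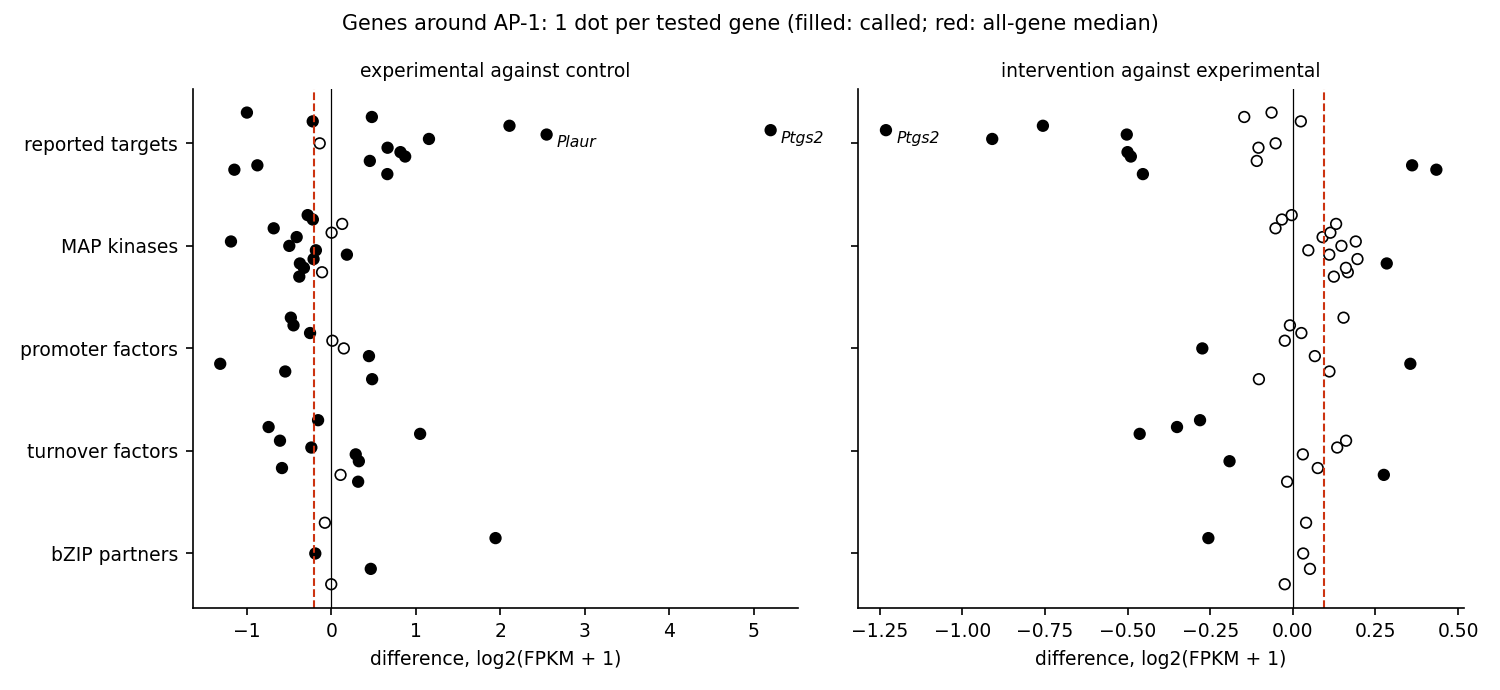
Difference on the log2(FPKM + 1) scale (horizontal axis, own scale per panel) of each tested gene of 5 lists around AP-1, for experimental against control (left) and intervention against experimental (right). Filled dots were called by limma, the red dashed line is the median of all genes, and heights within a row only separate the dots. Ptgs2 stands at 5.20 on the left and at -1.23 on the right.

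Of 15 tested genes of the MAP kinase list, 1 was higher and 11 lower in experimental than in control libraries. Of all genes 23.5% were higher and 50.5% lower. The 15 include the scaffold gene Mapk8ip1, which encodes no kinase. Their median of -0.28 lay near the -0.21 of all genes. With median-ratio scaling 3 were higher and 4 lower, beside 4380 higher and 4357 lower of all 11974 genes. Mapk3, which encodes ERK1, fell to 27.2 ± 1.67 in experimental against 63.3 ± 4.38 FPKM in control libraries (-1.19, limma adjusted p = 3.59e-07). The JNK scaffold gene Mapk8ip1 (-0.68, adjusted p = 1.24e-06), the p38 gene Mapk14 (-0.50, adjusted p = 1.41e-05) and the ERK5 gene Mapk7 (-0.41, adjusted p = 0.000312) fell by less (limma). In intervention against experimental libraries 1 kinase was higher and 0 lower, beside 15.9% higher and 3.60% lower of all genes. The kinase was Map2k5 (0.28, limma adjusted p = 0.0311), and 0 were called after median-ratio scaling, with 3 at an unadjusted p under 0.05. That scaling called 567 of all 11974 genes higher and 946 lower, with 3716 at an unadjusted p under 0.05. Against control, 2 genes of this list were higher and 9 lower in intervention libraries, beside 24.1% higher and 41.1% lower of all genes. The counts of this list were 4 and 4 after median-ratio scaling, beside 3912 higher and 3876 lower of all 11974 genes.

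Among 9 tested factors that act on FOS and JUN promoters, 2 were higher and 5 lower in experimental than in control libraries. These counts were near the background of 23.5% higher and 50.5% lower, and the median was -0.25 against -0.21 for all genes. With median-ratio scaling 4 were higher and 3 lower, beside 4380 higher and 4357 lower of all 11974 genes. The ternary complex factor genes Elk3 and Elk1 fell (-1.31 and -0.55, limma adjusted p = 7.01e-07 and 1.45e-05), while their relative Elk4 and Creb1, which encodes a cAMP response element binding factor, rose (0.45 and 0.48, limma adjusted p = 0.000139 and 2.82e-05). In intervention against experimental libraries Elk3 was higher and Mef2a lower (0.36 and -0.27, limma adjusted p = 0.0272 and 0.0277). That is 1 higher and 1 lower of 9, beside 15.9% higher and 3.60% lower of all genes. After median-ratio scaling 0 were higher and 1 lower, beside 567 higher and 946 lower of all 11974 genes. Against control, 2 were higher and 5 lower in intervention libraries, beside 24.1% higher and 41.1% lower of all genes.

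Of 10 tested turnover genes, 4 were higher and 5 lower in experimental than in control libraries, beside the same 23.5% and 50.5% of all genes, with a median of -0.02 against -0.21. Zfp36, which encodes an mRNA decay factor that acts on AU-rich transcripts such as Fos, rose to 9.55 ± 1.02 in experimental against 4.09 ± 0.448 FPKM in control libraries (1.05, limma adjusted p = 2.6e-06). Its paralog Zfp36l1, the ubiquitin ligase adaptor gene Det1 and Men1, which encodes the JUND-binding protein menin, fell (-0.74, -0.58 and -0.61, limma adjusted p at most 0.000114). In intervention against experimental libraries Zfp36, Zfp36l2 and Zfp36l1 were among 4 that fell (-0.46, -0.28 and -0.35, limma adjusted p at most 0.0213). Cops5 was the 1 that rose (0.28, limma adjusted p = 0.0301). Of all genes 3.60% were lower and 15.9% higher in that comparison. Median-ratio scaling left 0 turnover genes higher and 4 lower, beside 567 higher and 946 lower of all 11974 genes. Against control, 4 were higher and 4 lower in intervention libraries, beside 24.1% higher and 41.1% lower of all genes.

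Of 10 other bZIP genes whose products can pair with FOS or JUN proteins, 5 were tested. In experimental against control libraries 2 were higher and 1 lower, beside 23.5% higher and 50.5% lower of all genes. Their median was -0.0009 against -0.21 for all genes. Ddit3 (CHOP) rose to 98.2 ± 4.43 in experimental against 24.8 ± 2.06 FPKM in control libraries (1.94, limma adjusted p = 2.72e-08), Atf4 rose by 0.47 (limma adjusted p = 1.06e-05) and Atf7 fell by 0.19 (limma adjusted p = 0.0134). After median-ratio scaling 4 were higher and 0 lower, beside 4380 higher and 4357 lower of all 11974 genes. Without experimental replicate 1 the counts were 2 and 0. Jdp2, a repressive partner of JUN proteins, was not called, at 14.9 ± 0.49 in experimental and 15.8 ± 1.48 FPKM in control libraries (limma adjusted p = 0.33). In intervention against experimental libraries Ddit3 alone was called of these 5 (-0.26, limma adjusted p = 0.0335), beside 15.9% higher and 3.60% lower of all genes. Against control, Ddit3 and Atf4 were higher and Atf7 lower in intervention libraries (1.69, 0.52 and -0.16, limma adjusted p = 7.61e-08, 8.91e-06 and 0.0352). That is 2 higher and 1 lower of 5, beside 24.1% higher and 41.1% lower of all genes.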

How the data were processed

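RNA of 9 HT22 libraries was compared between intervention, experimental and control groups, assigned from the sample titles. The authors deposited 1 table of FPKM per gene and library, written with 2 decimals. Extraction used RNeasy (Qiagen) and library preparation a SMARTer kit, per the labels' protocols. The submitters' processing notes name the build mm10. The aligner, counter, annotation and strandedness were not given in the sources used here.

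FPKM holds no read number. Of 8158 values above 0 in genes shorter than 200 nt, 16.2% lay under the FPKM of a single read even at a very deep library size, so read numbers could not be recovered and count models were not used.

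Values were transformed to log2(FPKM + 1). Entries with at least 1 FPKM in at least 3 libraries (11974) were fitted with limma 3.58.1 in R 4.3.3 (eBayes with a mean-variance trend, all 9 libraries, no covariate), which gave every p-value, 2-sided and adjusted by Benjamini-Hochberg over all tested entries within a comparison. Calls are at an adjusted p under 0.05. Of 118 entries with a repeated symbol, the one with the highest mean kept it. Positions, exons and overlaps came from GENCODE M21 on mm10, and promoters from RefSeq.

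Text names all 8 members, the 2 nearest genes of each tested member, and up to 4 genes per list and comparison with the smallest adjusted p, except 2 genes not reported here. Members and lists were chosen with earlier results of these data known. Counts without genes let in by the experimental libraries were added after seeing the data. The fit was tested on simulated data. Alternatives changed the pseudocount, filter, scaling, variance model, samples fitted and replicate block, or left out 1 library.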

Additional observations from a re-analysis of the deposited data

How the results depend on the processing

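The experimental against control calls of members numbered 6 and were 5 to 6 with a library left out. The intervention against control calls numbered 5 and were 4 to 6. For intervention against experimental, 4 members were called, and 0 to 4 with a library left out. With no filter on low values 0 were called and 4 had an unadjusted p under 0.05 (limma), as had 5598 of all 29410 genes. The replicate block called 2 (Fosl1 and Jun) and changed no call of a member in the other comparisons. Same-numbered libraries did not pair: their deviations from the group means correlated at -0.182 to 0.11, with 2 of 9 correlations over 0.1. The numbers of all genes called in that comparison were 2337, but 358 with no filter, 1513 with median-ratio scaling (567 higher and 946 lower, against 1906 and 431), 1038 with quantile normalization (451 and 587), 1268 with the replicate block, and 1 to 2571 with a library left out. The median difference of all genes was -0.21, 0.10 and -0.10 for experimental against control, intervention against experimental and intervention against control, and 0.003, 0.0006 and 0.009 after median-ratio scaling. In experimental against control the same scaling turned 2809 higher and 6047 lower into 4380 and 4357, and in intervention against control 2890 and 4926 into 3912 and 3876.

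Of 372 member differences refitted, 324 kept direction and side of the threshold, 35 lost a call, 4 gained one and 9, none of them called, changed sign. For Jund in intervention against experimental (main difference 0.0002) these were -0.0125 scaled to TPM, -0.11 with median-ratio scaling, -0.068 with quantile normalization, -0.02 and -0.04 without intervention replicates 1 and 3, and -0.16 without experimental replicate 1. For intervention against control, Fos was at 0.03 without intervention replicate 1 and 0.061 without control replicate 1, and Fosb at 0.034 with quantile normalization. The cause was not tested.

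The FOS family share of AP-1 FPKM without Jund was 53.4% in intervention, 57.5% in experimental and 36.4% in control libraries. With Jund kept and a library left out, the FOS family share was 45.7% to 48.5%, 51.4% to 53.5% and 23.9% to 26.1% in the same order. Read depth is unknown, so levels near 1 FPKM, as of Fos, Fosb and Atf3, carry an unknown counting error. In intervention replicate 3, 6 of 11 neuronal markers were listed at 0, against 0 or 1 in the other libraries.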
